A study of Mus musculus with 24 samples.

Results

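The type I interferon response genes described here are 33 mouse genes that cells switch on after interferon alpha or beta, taken from the deposited read count table by exact gene symbol. All 33 were among the 24015 genes of that table, and all 33 passed the filter on low counts that left 13816 genes for testing. RNA of the left ventricle was sequenced 2, 4, 7 and 21 days after TAC or after a sham operation. TAC is transverse aortic constriction, an operation that narrows the aortic arch and makes the left ventricle pump against a high pressure. There were 3 libraries for each operation and day, 8 groups and 24 libraries in all. The sham hearts of the same day were the controls throughout. The labels used here give no strain, age or sex, and they do not say whether the 3 libraries of a group came from separate animals, so that the p-values measure the spread between these libraries.

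Type I interferons bind a receptor made of Ifnar1 and Ifnar2, which acts through the kinases Jak1 and Tyk2. Stat2 and Irf9 are parts of the complex that then forms and binds the interferon-stimulated response element, a short DNA motif in the promoters of induced genes. The induced genes encode sensors of foreign nucleic acid, enzymes and binding proteins that block viral growth, and factors that strengthen or end the response. In the heart, resident and recruited macrophages are a known source of such transcripts after injury, and other cells of the heart can express them too.

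Promoters are shown for members whose start region holds an exact copy of the core of that element, GAAA followed by any 2 bases and a further GAAA, on either strand, where overlapping copies were counted. The RefSeq promoter table of build GRCm38.p6, which covers 250 bases before to 50 bases after each start, held 22 of the 33 members, and 10 of these had a match. Of the 27025 gene symbols in the table, 3.99% had one in any of their promoters, which is how the members were counted. By promoter, 3.44% of all 32851 of that length had one. Among the 15 members with a promoter that rose at day 4, 8 had a match, and among the 7 that did not pass the test at that day, 2 had one. The first 4 sequences belong to the matched members with the smallest p at day 4, and Rsad2 was added after its values were seen because its effect turned from day 2 to day 21. All lie on the minus strand and are printed 5′ to 3′ in the direction of transcription, with matches in capitals. A match is a string of letters and says nothing of binding.
Oas3, chr5:120777610-120777909: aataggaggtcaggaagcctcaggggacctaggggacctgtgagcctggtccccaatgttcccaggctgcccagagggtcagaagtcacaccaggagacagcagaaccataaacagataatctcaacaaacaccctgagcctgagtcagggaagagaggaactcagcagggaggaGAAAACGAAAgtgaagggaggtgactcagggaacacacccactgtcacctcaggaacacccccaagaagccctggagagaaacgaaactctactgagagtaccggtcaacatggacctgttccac
Ddx58, chr4:40239776-40240075: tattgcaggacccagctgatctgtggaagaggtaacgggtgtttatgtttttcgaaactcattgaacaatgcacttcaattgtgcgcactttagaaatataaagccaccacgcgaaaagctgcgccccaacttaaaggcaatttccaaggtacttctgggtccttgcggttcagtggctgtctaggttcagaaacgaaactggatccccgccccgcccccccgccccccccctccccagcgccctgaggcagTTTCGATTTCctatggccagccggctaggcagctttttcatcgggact
Oas1a, chr5:120907476-120907775: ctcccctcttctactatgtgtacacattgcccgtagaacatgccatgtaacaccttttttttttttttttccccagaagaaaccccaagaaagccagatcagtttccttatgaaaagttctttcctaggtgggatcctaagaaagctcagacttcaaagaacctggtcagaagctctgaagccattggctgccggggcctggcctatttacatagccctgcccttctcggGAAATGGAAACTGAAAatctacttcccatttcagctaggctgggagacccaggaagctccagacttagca
Isg15, chr4:156200769-156201068: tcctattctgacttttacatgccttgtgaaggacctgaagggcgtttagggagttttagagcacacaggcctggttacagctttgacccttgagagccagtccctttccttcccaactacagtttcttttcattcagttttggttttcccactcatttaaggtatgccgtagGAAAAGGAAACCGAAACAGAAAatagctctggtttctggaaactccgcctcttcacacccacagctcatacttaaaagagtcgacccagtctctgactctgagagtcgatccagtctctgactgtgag
Rsad2, chr12:26456403-26456702: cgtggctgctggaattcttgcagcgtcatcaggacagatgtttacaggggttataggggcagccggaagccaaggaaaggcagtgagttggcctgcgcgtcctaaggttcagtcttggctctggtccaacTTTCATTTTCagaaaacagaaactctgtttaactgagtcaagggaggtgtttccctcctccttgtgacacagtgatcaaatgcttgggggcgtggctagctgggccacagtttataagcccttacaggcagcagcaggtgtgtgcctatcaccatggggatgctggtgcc
Isg15 held 3 overlapping matches, of which the first began 78 bases before the start, and Oas1a held 2 overlapping matches that began 20 and 14 bases before it. The match of Oas3 began 75 bases before the start. In Rsad2 and Ddx58 the match was on the opposite strand, 120 bases before the start in Rsad2 and just after the start in Ddx58.

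The libraries held 10.7 to 17.6 M reads counted to genes (M, megareads). Levels are given as CPM, read counts scaled to library size after TMM normalisation, and fold changes as log2 of TAC over sham with their standard errors. The 6 cardiomyocyte markers summed to 46800 to 93900 CPM in every library, so that the labelled tissue held its defining transcripts. Transcripts of atrium exceeded 30 CPM of Myl7, a limit set after seeing the data, in 4 libraries, sham replicates 2 and 3 of day 2, TAC replicate 1 of day 7 and sham replicate 2 of day 21, with 38.5 to 95.1 CPM of this atrial myosin, and the other libraries held 0 to 12.7 CPM. TAC replicate 1 of day 2 stood apart with 2106 CPM of Esr1, the estrogen receptor alpha, against at most 11 CPM in the other libraries, and its level of macrophage markers lay within the range of the sham hearts of that day. Its Nppa, a natriuretic peptide gene of the loaded heart, was at 755 CPM, above the 142 to 258 CPM of the sham hearts of that day.

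In sham hearts the members covered a wide range of levels per transcript length. By the authors' RPKM, reads scaled to both transcript length and library size, the mean over the 12 sham libraries was highest for Ifi27l2a (57.5 ± 18.8, SD, n = 12), followed by Ifi27 (38.5 ± 6.89) and Bst2 (29.8 ± 6.82). Irf1 came next at 12.7 RPKM. From Parp14 (9.68 ± 1.24) down to Usp18 (2.80 ± 0.715), each member differed from its neighbour in this order by less than the larger of their SDs. The lowest were Dhx58 (0.932 ± 0.345), Mx1 (0.538 ± 0.204) and Oas3 (0.266 ± 0.113). The median member stood at 5.57 RPKM, and the median tested gene at 6.15. A member was covered by 4 to 1854 reads in a library, the fewest being those of Oas3, so that counting noise weighs more on Oas3 and Mx1 than on the rest. Whether a low level means few expressing cells or little RNA in each cell cannot be told apart in whole ventricle.

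None of the members rose at day 2, most rose at day 4, about as many did as did not at day 7, and few passed the test at day 21. At day 2, 0 of the 33 members rose (0 at an unadjusted p under 0.05) and 1, Rsad2, fell, by the quasi-likelihood test of edgeR, with p-values adjusted after Benjamini and Hochberg over the 13816 genes at a threshold of 0.05. The background was 3.73% of all genes rising and 0.854% falling at that day. At day 4, 22 members rose and 0 fell (1 lower at an unadjusted p under 0.05), against 14.4% of all genes rising and 10.1% falling (20.2% higher at an unadjusted p under 0.05, as were 24 members). At day 7, 17 rose and 0 fell (0 lower at an unadjusted p under 0.05), against 13.1% of all genes rising and 10% falling. At day 21, 2 rose and 0 fell (0 lower at an unadjusted p under 0.05), against 0.622% of all genes rising and 0.47% falling. At an unadjusted p under 0.05, 18 members were higher at day 21, against 9.25% of all genes higher and 8.12% lower. DESeq2 and limma voom likewise called 0 members rising at day 2 and 0 falling at the other days. The members were chosen with earlier results of these data known. The shares of all genes thus give a scale and do not test the set.

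The size of the effect was also largest in the median at day 4, but it fell less from day 7 to day 21 than the counts did. The median log2 fold change of the members was -0.21 at day 2, 0.72 at day 4, 0.62 at day 7 and 0.46 at day 21, while the median of all tested genes stayed between -0.01 and 0.01. At day 2, 27 of the 33 fold changes were negative, and at days 7 and 21 all 33 were positive. At day 4 the 2 negative ones were those of Irf1 and Ifi27. The members were read in the same libraries, so that they are not 33 independent observations.

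**Figure D1:**
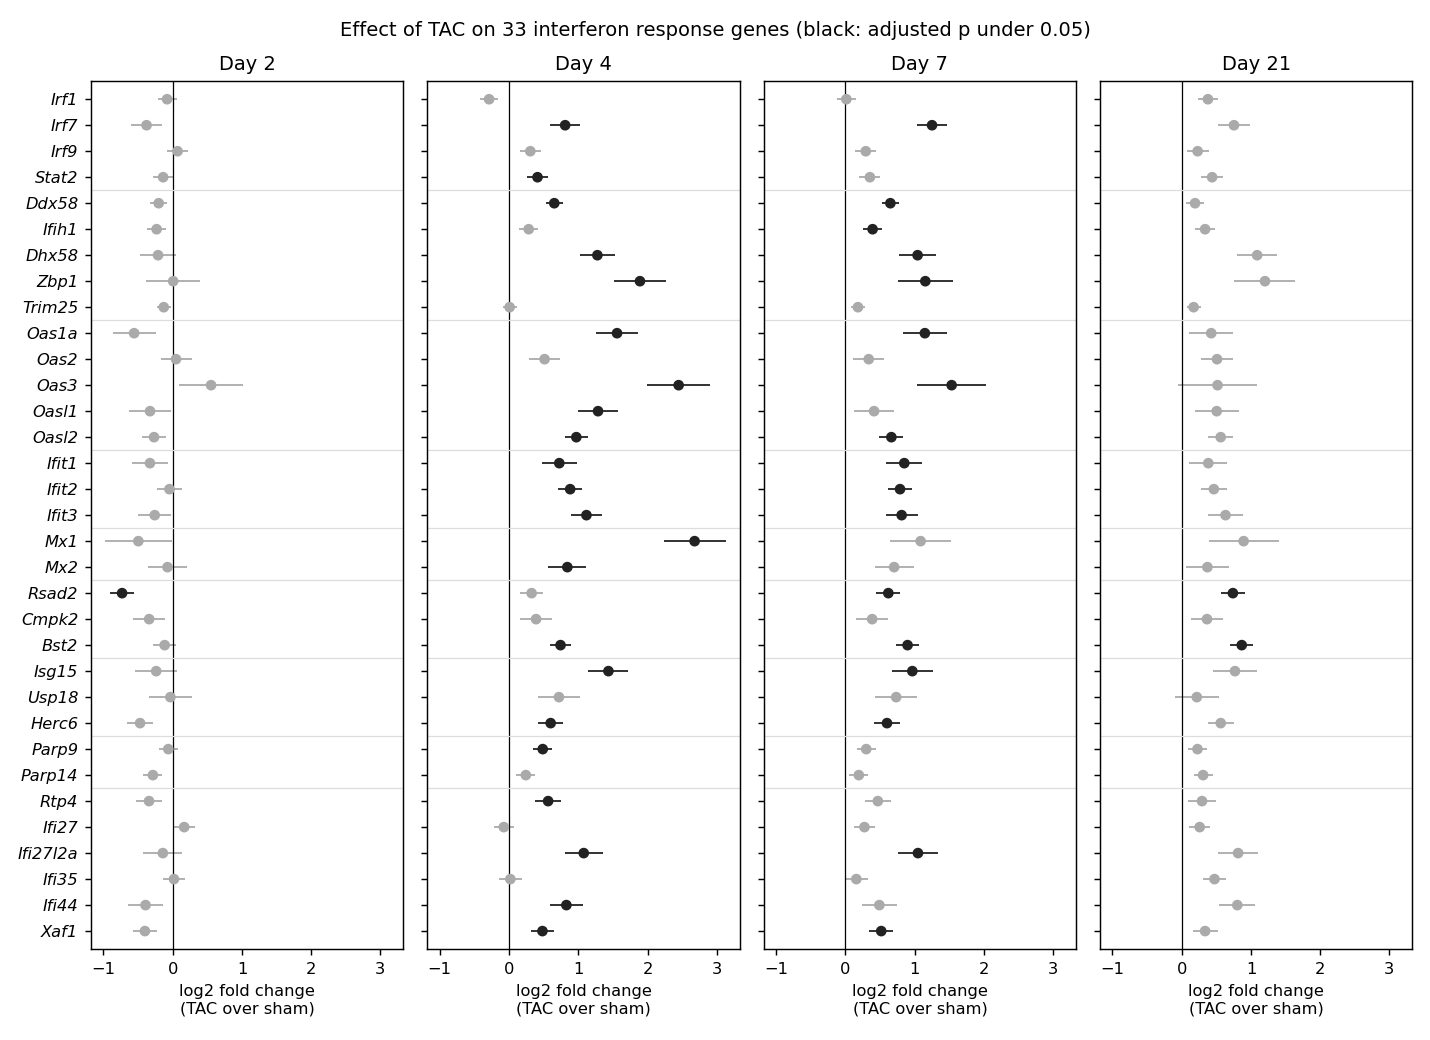
Log2 fold change of TAC over sham for each of the 33 members at each day (x axis), with members grouped by role from top to bottom. Points are edgeR estimates, bars are 1 standard error, and black points have an adjusted p under 0.05: 1 at day 2, 22 at day 4, 17 at day 7 and 2 at day 21.

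A count of groups that do not overlap gave a related picture. At day 2 all 3 TAC libraries lay below all 3 sham libraries in 8 members (Irf7, Rsad2, Rtp4, Ddx58, Ifih1, Xaf1, Parp14 and Herc6) and above them in 0, where 11.2% of all genes did so in each direction. At day 4 the TAC libraries lay above in 23 members, against 21.5% of all genes (19.6% lay below), and at day 7 in 14, against 20.5%. At day 21 they lay above in 25 members, against 11.9% of all genes. The groups were thus separate in more members at day 21 than at day 7, although the median log2 fold change was smaller at day 21.

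Of the 24 members that rose at some day, 15 rose at both day 4 and day 7. These are Ifit1, Ifit2, Ifit3, Isg15, Irf7, Oas1a, Oas3, Oasl2, Bst2, Ddx58, Dhx58, Ifi27l2a, Xaf1, Zbp1 and Herc6. A further 7 rose at day 4 and did not pass the test at day 7 (Stat2, Oasl1, Mx1, Mx2, Rtp4, Ifi44 and Parp9), and 2 passed at day 7 and not at day 4 (Rsad2 and Ifih1). Bst2 was the member that rose at days 4, 7 and 21. The remaining 9 rose at no day: Irf1, Irf9, Oas2, Cmpk2, Usp18, Ifi27, Ifi35, Trim25 and Parp14.

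Among the 4 transcription factors, Irf7, which drives the amplification of the response, had the largest change. Irf7 was at 11.6, 12.04 and 10.6 CPM in the sham libraries of day 2 and at 10.2, 8.09 and 8.20 CPM in the TAC libraries. At day 4 it was at 13.5, 17.4 and 14.2 CPM in sham and at 24.5, 33.5 and 21.3 CPM in TAC. The groups did not overlap at either day, with TAC below sham at day 2 and above it at day 4. At day 7 the sham libraries held 7.89, 8.91 and 12.7 CPM and the TAC libraries 24.8, 14.8 and 30.2 CPM. At day 21 the values were 7.65, 11.2 and 9.03 CPM in sham and 15.1, 16.5 and 15.3 CPM in TAC. Each TAC library again lay above each sham library at days 7 and 21, with replicate 2 the lowest of the TAC libraries at day 7. The log2 fold change was -0.38 ± 0.224 at day 2 (edgeR adjusted p = 0.365), 0.81 ± 0.214 at day 4 (adjusted p = 0.00976), 1.25 ± 0.222 at day 7 (adjusted p = 0.000793) and 0.75 ± 0.227 at day 21 (adjusted p = 0.1). At day 21 DESeq2 called Irf7 too (adjusted p = 0.0412).

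The other 3 factors had smaller fold changes. Stat2, a subunit of the complex that binds the response element, rose at day 4 by 0.41 ± 0.150 on the log2 scale (edgeR adjusted p = 0.0488) and stood at 0.35 ± 0.151 at day 7 (adjusted p = 0.0927). The call of Stat2 was lost without any of the 3 sham libraries or TAC replicate 2 of day 4 (highest adjusted p = 0.341). Irf9, its DNA-binding partner, did not pass the test at any day, with fold changes of 0.07 to 0.31 on the log2 scale. Irf1, a factor best known from the response to interferon gamma, had log2 fold changes of -0.08, -0.29, 0.01 and 0.38 at days 2, 4, 7 and 21 and passed the test at no day. At day 21 Irf1 was at 20.4 ± 0.706 CPM in sham and 26.6 ± 0.484 CPM in TAC (SD, n = 3), without overlap.

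Of the 4 sensors of foreign nucleic acid and Trim25, 3 of 5 rose at day 4 and 4 of 5 at day 7. Ddx58, also called RIG-I, a sensor of viral RNA ends, was at 29.98, 33.8 and 33.3 CPM in the sham libraries of day 4 and at 46.0, 57.6 and 49.2 CPM in TAC. At day 7 it was at 27.8, 29.7 and 27.0 CPM in sham and at 46.4, 35.5 and 50.5 CPM in TAC. The groups did not overlap at either day, and the log2 fold changes were 0.65 ± 0.122 (edgeR adjusted p = 0.00114) and 0.65 ± 0.123 (adjusted p = 0.00132). Dhx58, a regulator of these sensors, rose by 1.28 ± 0.254 at day 4 and 1.04 ± 0.271 at day 7 on the log2 scale (edgeR adjusted p = 0.00171 and 0.0104). Zbp1, which senses nucleic acid in the Z form and can start necroptosis, went from 3.38 ± 1.81 to 12.6 ± 2.43 CPM at day 4 (SD, n = 3), a log2 fold change of 1.89 ± 0.377. Ifih1, also called MDA5, rose at day 7 (0.39 ± 0.141, edgeR adjusted p = 0.0475). At day 7 the calls of Ifih1 and Zbp1 were lost without any 1 library except TAC replicate 2 (highest adjusted p = 0.243 and 0.156), and that of Dhx58 without sham replicate 1 or TAC replicate 1 (0.0612). Trim25, the ubiquitin ligase that activates Ddx58, passed the test at no day and had log2 fold changes of -0.13 to 0.18.

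The oligoadenylate synthetases are antiviral enzymes that respond to double-stranded RNA, and Oasl1 and Oasl2 are their relatives. In this family 0 of 5 rose at day 2, 4 at day 4, 3 at day 7 and 0 at day 21 (Oasl2 and Oas2 at an unadjusted p under 0.05 at day 21, none at day 2). Oasl2 was at 31.0, 30.6 and 23.1 CPM in sham and 25.5, 19.1 and 25.8 CPM in TAC at day 2, with overlap. On day 4 its level was 30.2, 31.5 and 36.9 CPM in sham and 56.3, 78.8 and 58.7 CPM in TAC, and each TAC library exceeded each sham library. On day 7 its level was 25.3, 26.7 and 23.2 CPM in sham and 41.6, 28.5 and 48.9 CPM in TAC. At day 21 it was at 19.2, 17.6 and 19.7 CPM in sham and 26.9, 25.3 and 31.2 CPM in TAC. TAC lay above sham without overlap from day 4 on. Its log2 fold changes were -0.27 ± 0.171 (edgeR adjusted p = 0.401), 0.97 ± 0.168 (adjusted p = 0.000658), 0.66 ± 0.172 (adjusted p = 0.0102) and 0.56 ± 0.177 (adjusted p = 0.112).

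Oas3 was the member of this family with the largest change. Day 4 values were 0.352, 0.975 and 1.85 CPM in sham and at 5.56, 7.02 and 5.08 CPM in TAC, without overlap, a log2 fold change of 2.45 ± 0.453 (edgeR adjusted p = 0.00104). At day 7 the change was 1.53 ± 0.502 (adjusted p = 0.0329), and TAC replicate 2 with 0.721 CPM lay among the sham libraries. Oas1a rose by 1.56 ± 0.300 at day 4 and 1.15 ± 0.321 at day 7. The day 7 call was lost without any 1 library except TAC replicate 2 for Oas3 (highest adjusted p = 0.131), without sham replicate 1 or TAC replicate 1 or 3 for Oas1a (0.0736) and without sham or TAC replicate 3 for Oasl2 (0.0696). Oasl1 rose at day 4 (1.29 ± 0.290, edgeR adjusted p = 0.00375), and Oas2 passed the test at no day. Oas1a has near copies such as Oas1g, and Oasl1 and Oasl2 resemble each other and lie side by side on chromosome 5, so that reads could be split between relatives in a way the sources used here do not describe.

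The Ifit proteins bind foreign RNA and block its translation, and their 3 members in the table rose together. All 3 of Ifit1, Ifit2 and Ifit3 rose at days 4 and 7, and none passed the test at days 2 and 21 (0 and 2 at an unadjusted p under 0.05). Ifit3 was at 7.70, 7.26 and 6.02 CPM in sham and 6.84, 5.09 and 5.73 CPM in TAC at day 2. At day 4 it was at 6.15, 9.34 and 9.23 CPM in sham and 14.7, 23.8 and 15.4 CPM in TAC. The groups overlapped at day 2 and were apart at day 4. Day 7 values were 7.58, 10.4 and 9.41 CPM in sham and 17.6, 10.1 and 20.1 CPM in TAC, where replicate 2 lay below the highest sham library. At day 21 it was at 5.68, 4.98 and 4.67 CPM in sham and 7.84, 6.63 and 9.28 CPM in TAC, again without overlap. The log2 fold changes were -0.26 ± 0.241 (edgeR adjusted p = 0.588), 1.12 ± 0.230 (adjusted p = 0.0021), 0.81 ± 0.229 (adjusted p = 0.0163) and 0.63 ± 0.250 (adjusted p = 0.19). The Ifit3 call of day 7 was lost without sham replicate 1 or TAC replicate 1 or 3 (highest adjusted p = 0.0918), and that of Ifit1 without any 1 library except TAC replicate 2 (0.117). At day 4 the Ifit1 call was lost without sham replicate 1 or 3 or TAC replicate 1 or 2 (0.212). Ifit2 and Ifit3 are neighbours on chromosome 19, and Ifit3 has a near copy in the mouse, so that its count is uncertain in the same way.

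Mx1 and Mx2 are GTPases that trap viral particles, and Mx1 had the largest fold change of all members. Mx1 was at 1.98, 1.39 and 1.51 CPM in sham and 0.563, 1.33 and 1.46 CPM in TAC at day 2. On day 4 its level was 0.967, 1.46 and 1.77 CPM in sham and at 11.7, 9.46 and 6.04 CPM in TAC. The lowest TAC library of day 4 thus held more than any sham library, whereas at day 2 the groups overlapped. At day 7 it was at 0.711, 2.51 and 2.13 CPM in sham and 4.76, 1.52 and 4.87 CPM in TAC. At day 21 it was at 0.728, 1.03 and 1.30 CPM in sham and 2.58, 1.047 and 2.06 CPM in TAC. TAC replicate 2 lay within the sham range at both later days. The log2 fold change was -0.50 ± 0.479 at day 2, 2.68 ± 0.447 at day 4 (edgeR adjusted p = 0.000565), 1.09 ± 0.446 at day 7 (adjusted p = 0.0807) and 0.89 ± 0.507 at day 21 (adjusted p = 0.369). Mx2 rose at day 4 (0.84 ± 0.276, edgeR adjusted p = 0.0309) and stood at 0.70 ± 0.282 at day 7 (adjusted p = 0.074). The Mx2 call was lost without sham replicate 1 or 3 or TAC replicate 2 or 3 of day 4 (highest adjusted p = 0.16).

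Rsad2, or viperin, makes a nucleotide that stops viral RNA synthesis, and it was the member with opposite calls at different days. At day 2 it was at 38.5, 28.7 and 25.4 CPM in sham and 21.2, 18.0 and 16.8 CPM in TAC. Each TAC library lay below each sham library, and Rsad2 fell by 0.73 ± 0.175 on the log2 scale (edgeR adjusted p = 0.0215). The call was lost without sham replicate 1 or 2 or TAC replicate 2 or 3 (highest adjusted p = 0.188), with log2 fold changes of -0.85 to -0.54 over the 6 omissions. Day 4 values were 27.3, 35.6 and 34.1 CPM in sham and 38.6, 50.4 and 32.8 CPM in TAC, with overlap and no call (0.33 ± 0.171, adjusted p = 0.168). On day 7 its level was 27.3, 25.9 and 21.5 CPM in sham and 34.1, 32.2 and 48.4 CPM in TAC, and it rose by 0.62 ± 0.174 (adjusted p = 0.0158). At day 21 it was at 22.7, 20.4 and 21.0 CPM in sham and 36.6, 33.1 and 37.5 CPM in TAC. It rose by 0.74 ± 0.177 at day 21 (adjusted p = 0.0458), with no overlap at days 7 and 21. The call of day 7 was lost without sham or TAC replicate 3 (highest adjusted p = 0.109). That of day 21 was lost without any 1 library except TAC replicate 2 (0.176), with log2 fold changes of 0.70 to 0.79. Its neighbour Cmpk2, a mitochondrial nucleotide kinase, passed the test at no day, with log2 fold changes of -0.34, 0.39, 0.39 and 0.37.

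Bst2, or tetherin, which holds budding virus at the cell surface, rose at 3 of the 4 days. Day 7 values were 17.5, 16.7 and 16.2 CPM in sham and 28.8, 25.3 and 39.6 CPM in TAC. At day 21 it was at 13.0, 13.7 and 10.8 CPM in sham and 23.4, 23.03 and 21.95 CPM in TAC. The groups were apart at both days, and the 3 TAC libraries of day 21 lay close to each other. The log2 fold change was -0.12 ± 0.163 at day 2 (edgeR adjusted p = 0.744), 0.74 ± 0.158 at day 4 (adjusted p = 0.00263), 0.90 ± 0.161 at day 7 (adjusted p = 0.000852) and 0.87 ± 0.166 at day 21 (adjusted p = 0.0166). At day 21 the call was lost without sham replicate 1 or 3 or TAC replicate 1 or 3 (highest adjusted p = 0.117), and the log2 fold change stayed between 0.77 and 0.94.

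**Figure D2:**
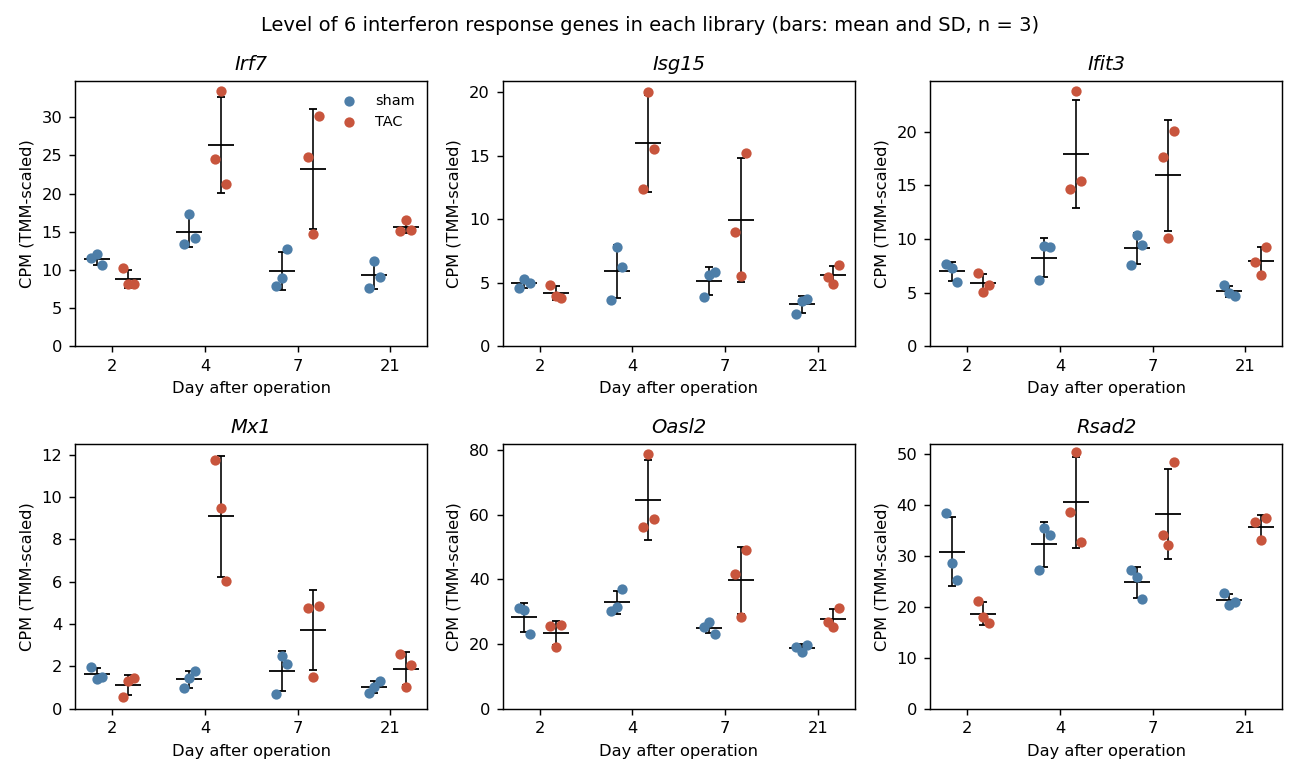
CPM (y axis, from 0) of Irf7, Isg15, Ifit3, Mx1, Oasl2 and Rsad2 in each of the 24 libraries by day (x axis), blue for sham and red for TAC, with bars for the mean and SD of 3 libraries. The TAC mean lies below the sham mean at day 2 and above it at day 4 in each of the 6 genes, with overlap at day 4 in Rsad2 (32.8 CPM in the lowest TAC and 35.6 CPM in the highest sham library).

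Isg15 is a ubiquitin-like protein that is attached to other proteins, Herc6 is a ligase that attaches it in the mouse, and Usp18 removes it and dampens the receptor. Isg15 was at 4.54, 5.33 and 4.95 CPM in sham and 4.83, 3.99 and 3.82 CPM in TAC at day 2. At day 4 it was at 3.61, 7.80 and 6.26 CPM in sham and 12.4, 20.0 and 15.6 CPM in TAC. The groups overlapped at day 2 and were well apart at day 4. At day 7 it was at 3.87, 5.62 and 5.86 CPM in sham and 9.03, 5.53 and 15.2 CPM in TAC. At day 21 it was at 2.55, 3.57 and 3.75 CPM in sham and 5.44, 4.89 and 6.41 CPM in TAC. TAC replicate 2 lay within the sham range at day 7, and the groups were apart at day 21. The log2 fold changes were -0.24 ± 0.304 (edgeR adjusted p = 0.711), 1.44 ± 0.288 (adjusted p = 0.00181), 0.97 ± 0.295 (adjusted p = 0.0243) and 0.77 ± 0.320 (adjusted p = 0.215). Herc6 rose at days 4 and 7, each by 0.60 on the log2 scale (± 0.183 and ± 0.186). Usp18 had log2 fold changes of 0.72 ± 0.298 and 0.73 ± 0.305 at those days and did not pass the test (edgeR adjusted p = 0.0813 and 0.0843). The Isg15 call of day 7 was lost without sham replicate 1 or TAC replicate 1 or 3 (highest adjusted p = 0.205) and that of Herc6 without sham or TAC replicate 1 or 3 (0.101). At day 4 that of Herc6 was lost without sham replicate 1 or TAC replicate 2 (0.122).

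The remaining 8 members are the ADP-ribosyltransferases Parp9 and Parp14 and 6 other induced genes. Parp9 rose at day 4 (0.49 ± 0.133, edgeR adjusted p = 0.012), and Parp14, the member with the most reads in each of the 24 libraries, passed the test at no day. Of the other 6, Rtp4, Ifi27l2a, Ifi44 and Xaf1 rose at day 4, and Ifi27l2a and Xaf1 rose at day 7. Ifi27l2a went from 18.8 ± 5.54 to 39.7 ± 9.45 CPM at day 4 and from 13.3 ± 0.262 to 27.3 ± 10.1 CPM at day 7 (SD, n = 3). Its neighbour Ifi27 on chromosome 12 passed the test at no day, with log2 fold changes of 0.17, -0.08, 0.28 and 0.26. Ifi35, too, passed at no day. At day 4 the calls of Parp9 and Ifi44 were lost without sham replicate 1 or TAC replicate 2 (highest adjusted p = 0.0793 and 0.0962). The calls of Rtp4 and Xaf1 were lost without sham replicate 1 or 2 or TAC replicate 2 or 3, and that of Xaf1 also without sham replicate 3 (0.157 and 0.308). At day 7 the call of Xaf1 was lost without any 1 library except TAC replicate 2 (0.141) and that of Ifi27l2a without TAC replicate 3 (0.0795).

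The effects at 2 days were then compared directly. For day 4 against day 2, edgeR called 0 members and 0% of all genes (smallest adjusted p of a member 0.116), while DESeq2 called 5, Ifit3, Oasl2, Rsad2, Ddx58 and Herc6, and limma voom 0. At an unadjusted p under 0.05 the effect was higher at day 4 in 26 members and lower in 0, against 5.15% of all genes higher and 3.64% lower. The median difference of the log2 effects was 0.92. The difference was 1.24 ± 0.240 for Oasl2, 2.12 ± 0.431 for Oas1a, 0.85 ± 0.173 for Ddx58 and 3.18 ± 0.655 for Mx1. Calls of single members for this difference thus varied with the tool. As the members were chosen with earlier results known, the shares of all genes do not test the set in these comparisons of days.

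Later days differed less from each other. The median difference of the members' log2 effects was -0.048 for day 7 against day 4 and -0.065 for day 21 against day 7. For day 7 against day 4 edgeR called 0 members, DESeq2 and limma voom 0, where edgeR called 0.0434% of all genes higher and 0.00724% lower. With no adjustment, 2 members had p under 0.05 and a lower effect at day 7 (3.76% of all genes lower, 3.85% higher), Oasl1 (-0.87 ± 0.411) and Mx1 (-1.59 ± 0.634). For day 21 against day 7 these tools called 0 (edgeR 0.029% of all genes higher and 0.0362% lower), and Ddx58 was lower at an unadjusted p under 0.05 (-0.46 ± 0.175), as were 6.2% of all genes, with 5.19% higher. For day 21 against day 2 edgeR called 1 member, Rsad2, among 2 genes in all (0.0145% of genes tested). The effect on Rsad2 was 1.47 ± 0.249 higher on the log2 scale at day 21 (adjusted p = 0.0495), and 20 members were higher at an unadjusted p under 0.05, against 4.21% of all genes (4.05% lower). DESeq2 called 3, Rsad2, Bst2 and Herc6, and limma voom 0. The Rsad2 call was lost without sham replicate 1 or 2 or TAC replicate 2 or 3 of day 2, and without any of the 3 sham libraries or TAC replicate 1 of day 21 (highest adjusted p = 0.16, difference 1.28 to 1.59 over these omissions).

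The levels were also compared over the days within each operation. In TAC hearts the mean was lowest at day 2 in 31 of the 33 members and highest at day 4 in 29. In sham hearts it was highest at day 4 in 21 members and lowest at day 21 in 30. Against the mean of the 3 later TAC groups, 22 members were lower in TAC hearts of day 2, by edgeR with Benjamini-Hochberg adjustment, against 3.39% of all genes. This share is no test of the set either, given how the members were chosen. The median difference was -0.77 on the log2 scale, and Irf7 (-1.27 ± 0.191), Bst2 (-0.99 ± 0.137) and Rsad2 (-1.04 ± 0.150) had the smallest p. The count was 10 without TAC replicate 2 of day 2 and 13 without TAC replicate 3 of day 2. Among sham hearts, edgeR called 0 members over the 4 days (0.68% of all genes; at an unadjusted p under 0.05, 16 members and 9.42% of all genes), DESeq2 1, Oasl2, and limma voom 0. Sham hearts of day 2 against the other sham days gave 0 members by edgeR, DESeq2 and limma voom, where edgeR called 0.0217% of all genes higher and 0.0724% lower. At an unadjusted p under 0.05, 2 members were higher and 1 lower, against 3.89% of all genes higher and 4.42% lower. The spread in these tests was estimated from sham and TAC libraries together, and the TAC libraries of a group differed more. The labels used here give no date of harvest or sequencing, so that day and any batch cannot be told apart in these comparisons within 1 operation.

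The libraries of a group were not alike. Summed over the 33 members, the sham libraries held 538 to 608 CPM at day 2, 541 to 707 at day 4, 523 to 589 at day 7 and 458 to 472 at day 21. The TAC libraries held 477 to 533 CPM at day 2, 818 to 1142 at day 4, 609 to 927 at day 7 and 595 to 644 at day 21. The sums were apart at each of the 4 days, below sham at day 2 and above it afterwards. Within day 7, TAC replicates 1 and 3 held 804 and 927 CPM and replicate 2 held 609 CPM, close to the highest sham library. The median ratio of the members to the sham mean of the day was 0.10 on the log2 scale in this replicate, against 0.70 and 0.84 in the other TAC libraries of day 7, and 0.43, 0.91 and 0.48 in those of day 4. At day 2 it was -0.09, -0.29 and -0.25, and at day 21 it was 0.52, 0.38 and 0.52.

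Leaving out single libraries showed how far the counts rest on them. At day 4, 14 of the 22 calls held without each library in turn, and the other 8 (Ifit1, Stat2, Mx2, Rtp4, Ifi44, Xaf1, Parp9 and Herc6) were each lost without sham replicate 1, when 14 members were called. At day 7, 4 of the 17 calls held without each library in turn (Ifit2, Irf7, Bst2 and Ddx58). There the count was 5 without TAC replicate 3, 7 without TAC replicate 1 or sham replicate 1 and 9 without sham replicate 3. Without TAC replicate 2 of day 7 it was 24. At day 21 the count was 0 without sham replicate 1 or 3 or TAC replicate 1 or 3, 1 without sham replicate 2 and 4 without TAC replicate 2. At day 2, leaving out TAC replicate 1, the library with high Esr1, left the single call in place. Without the 4 libraries with over 30 CPM of Myl7 the counts were 0 at day 2, 5 at day 7 and 0 at day 21.

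**Figure D3:**
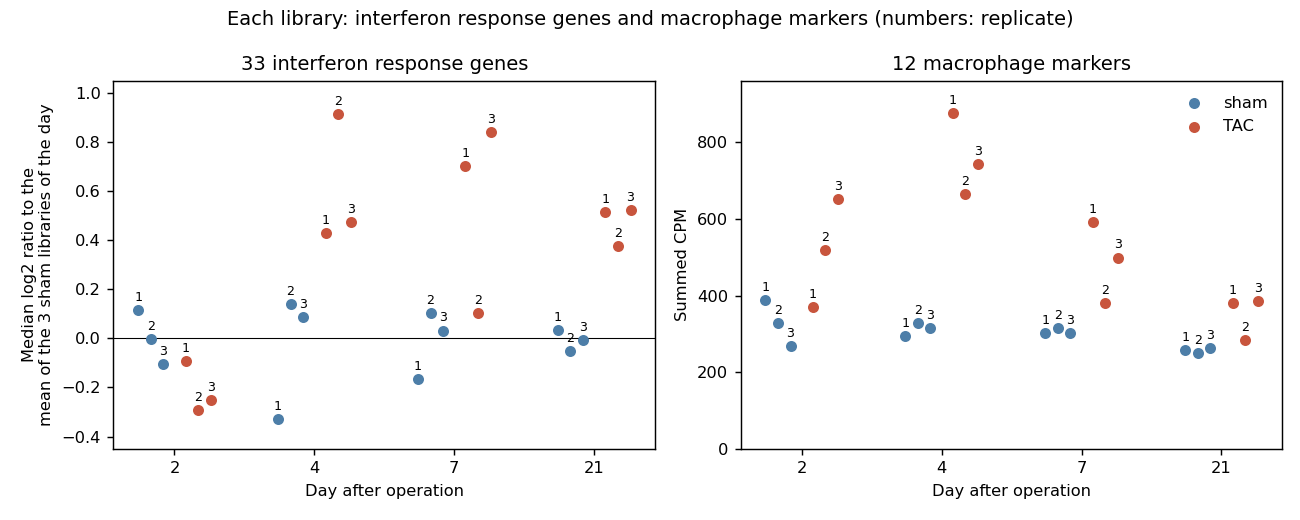
Left: the median log2 ratio of the 33 members to the mean of the sham libraries of the day (y axis) in each library, by day (x axis). Right: the summed CPM of 12 macrophage markers in the same libraries, blue for sham and red for TAC, with replicate numbers. At day 2 the TAC libraries reach 652 CPM of macrophage markers while their members lie between -0.29 and -0.09, and at day 7 TAC replicate 2 is the lowest TAC library in both panels.

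Macrophage markers moved in part with the members. Of 13 listed, 12 were in the table and none of these was at 0 in all libraries. They summed to 249 to 388 CPM in the sham libraries. In TAC they summed to 370, 518 and 652 CPM at day 2, 878, 665 and 743 CPM at day 4, 591, 380 and 499 CPM at day 7 and 379, 285 and 385 CPM at day 21. By edgeR, 6 of the 12 rose at day 2, 11 at day 4, 10 at day 7 and 0 at day 21 (5 at an unadjusted p under 0.05). The share of all genes rising was 3.73%, 14.4%, 13.1% and 0.622% at these days (9.25% higher at an unadjusted p under 0.05 at day 21). At day 2, then, 6 macrophage markers and 0 interferon members rose. The macrophage calls of day 2 were lost with the 6 libraries of that day alone and without the 4 libraries with over 30 CPM of Myl7, where 0 genes were called at all. At day 4 the TAC library with the fewest macrophage marker reads, replicate 2, had the highest members, and at day 7 replicate 2 was the lowest in both. The part of macrophages in the rise of days 4 and 7 was not tested.

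Other cell types were read in the same way. The scale for their counts is the share of all genes, of which 3.73%, 14.4%, 13.1% and 0.622% rose at days 2, 4, 7 and 21. Those that fell were 0.854%, 10.1%, 10% and 0.47%. At an unadjusted p under 0.05, 12.4% were higher and 7.58% lower at day 2, and 9.25% and 8.12% at day 21. Of the 6 cardiomyocyte markers, 0 fell at day 2 (1 at an unadjusted p under 0.05), 2 at day 4 (Pln and Tnni3), 4 at day 7 (Pln, Ryr2, Tnnt2 and Tnni3) and 0 at day 21 (2 at an unadjusted p under 0.05). Pln, the inhibitor of the calcium pump, fell by 0.67 ± 0.133 on the log2 scale at day 4 and by 0.61 ± 0.132 at day 7. Of 5 red blood cell genes, 4 globins were at 0 in all 24 libraries, and Alas2 fell at day 4 (-0.86 ± 0.231, edgeR adjusted p = 0.0107). The 4 pan-leukocyte markers summed to 29.5 to 44.8 CPM in sham libraries, and 2 of them rose at day 2, 4 at day 4, 3 at day 7 and 0 at day 21 (2 at an unadjusted p under 0.05). The fibroblast markers summed to 5001, 1190 and 2272 CPM in TAC replicates 1, 2 and 3 of day 7 and did not exceed 1442 CPM in sham. Replicate 2 thus lay within the sham range. At days 2, 4, 7 and 21, 0, 2, 3 and 0 of 5 rose (2 at an unadjusted p under 0.05 at day 2 and 2 at day 21). The calls were those of Col1a1 and Col1a2 at days 4 and 7 and Tcf21 at day 7, while Pdgfra and Dcn passed the test at no day. Of 6 endothelial markers 3 fell at day 2 and 2 at day 4, and 2 rose and 1 fell at day 7. Markers of neutrophils stayed at or under 18.0 CPM, those of T and NK cells at or under 5.15 CPM and those of B cells at or under 3.87 CPM in sum. Of the 5 markers of plasmacytoid dendritic cells, a cell type known for strong interferon production, 2 passed the filter. Siglech, Ccr9 and Klk1 were too low to be tested. Tcf4 made up nearly all of their 209 to 295 CPM and is expressed by many other cells. The other, Pacsin1, went from 0.382 ± 0.243 to 1.80 ± 0.856 CPM at day 4 and rose (2.19 ± 0.555). Both rose at day 7, Pacsin1 by 2.23 ± 0.575 and Tcf4 by 0.34 ± 0.0679 on the log2 scale. The group means of Pacsin1 were at or under 1.80 CPM. With these markers a change in the number of plasmacytoid dendritic cells could not be read. The part of these cell types in the members' changes was not tested.

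Interferon transcripts themselves were hardly detected. Of 21 listed interferon genes, 14 had 0 reads in all 24 libraries, and the 21 together had 24 reads among 330.1 M. Type I interferons had 11 of these reads, with 1 read of Ifnb1 in a sham library. None passed the filter on low counts. A count of 0 allows up to 3 counts, which is 0.171 CPM in the deepest and 0.281 CPM in the shallowest library, so that lower levels were not detectable at this depth. These limits cover counting error only.

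The receptor subunits Ifnar1 and Ifnar2 passed the test at no day, while several genes of the signalling chain did. Of 16 receptor and Jak-Stat genes, 3 rose at day 2, 3 rose and 1 fell at day 4, 3 rose and 1 fell at day 7, and 1 fell at day 21. Among all genes tested, 3.73%, 14.4%, 13.1% and 0.622% rose at days 2, 4, 7 and 21. The shares that fell were 0.854%, 10.1%, 10% and 0.47%. Ifnar1 was at 42.7 ± 4.48 CPM in sham and 48.2 ± 6.73 CPM in TAC at day 2 and at 41.6 ± 2.42 and 52.2 ± 6.96 CPM at day 4 (SD, n = 3), with log2 fold changes of 0.18 ± 0.121 and 0.33 ± 0.122 (edgeR adjusted p = 0.435 and 0.0545). Ifnar2 stood at 0.01 ± 0.0733 and 0.06 ± 0.0734. The genes that rose at days 2 and 4 were Stat3, the mediator of interleukin-6 signals, Socs3, an inhibitor induced by it, and Ptpn6, a phosphatase of blood cells. Socs3 rose by 2.08 ± 0.490 at day 2 and 2.14 ± 0.496 at day 4, so that it was called at day 2, when 0 members rose. Its TAC libraries of day 2 were unequal, at 10.7 ± 8.91 CPM against 2.58 ± 0.618 CPM in sham (SD, n = 3). The call of day 2 was lost with the 6 libraries of that day alone, as was every other call of that day.

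Sensors and adaptors upstream of interferon were called most often at day 4. Of 23 such genes 1 rose at day 2 (Ticam1, the adaptor of Tlr3 and Tlr4), 12 at day 4, 7 at day 7 and 0 at day 21 by edgeR (2 at an unadjusted p under 0.05). The share of all genes rising was 3.73%, 14.4%, 13.1% and 0.622% at these days, and it too was highest at day 4. At day 2, 12.4% of all genes were higher and 7.58% lower at an unadjusted p under 0.05. Among the 23, 9 had an unadjusted p under 0.05 at that day, of which Tlr3 was lower and the rest higher. Their medians were 0.36, 0.41, 0.36 and 0.17 on the log2 scale at days 2, 4, 7 and 21, so that days 2 and 7 were alike in the median. Among the receptors of nucleic acid in endosomes, Tlr7, Tlr8 and Tlr9 had some of the largest changes at day 4, and Tlr3 had a smaller one. Tlr7 rose by 1.63 ± 0.260 on the log2 scale from 7.13 ± 0.832 CPM in sham, Tlr9 by 1.68 ± 0.345 and Tlr8 by 1.81 ± 0.392. The rise of Tlr3 was 0.41 ± 0.128 from 24.1 ± 4.43 CPM in sham. Tmem173, or STING, the adaptor of cytosolic DNA sensing, went from 7.99 ± 0.922 to 15.2 ± 3.44 CPM at day 4 (0.93 ± 0.211), and the DNA sensor Mb21d1, or cGAS, rose by 0.93 ± 0.304. At day 7 Irf8, a factor of macrophages and dendritic cells, rose by 1.26 ± 0.186 and the kinase Ikbke by 1.88 ± 0.467. Of the 12 macrophage markers, 6 rose at day 2, 11 at day 4 and 10 at day 7, and their part in these changes was not tested.

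The other interferon-stimulated genes were called mostly at days 4 and 7, as the members were, with smaller median shifts. Of 78 listed, 75 were in the table and 73 were tested. At day 2, 2 rose (Slfn9 and Ifi30) and 0 fell by edgeR, at day 4, 31 rose and 3 fell, at day 7, 23 rose and 2 fell, and at day 21, 3 rose and 0 fell. Of all genes, 3.73%, 14.4%, 13.1% and 0.622% rose at days 2, 4, 7 and 21, and 0.854%, 10.1%, 10% and 0.47% fell. The medians of the list were -0.03, 0.37, 0.41 and 0.25 on the log2 scale. They were highest at day 7, whereas the median of the members was highest at day 4. Cxcl10, a chemokine that attracts T cells, went from 1.45 ± 0.923 to 9.19 ± 0.389 CPM at day 4 (2.65 ± 0.558) and rose by 2.56 ± 0.585 at day 7. Slfn9 rose by 1.33 ± 0.290 at day 2, 2.03 ± 0.280 at day 4 and 1.96 ± 0.277 at day 7. Eif2ak2, or PKR, the kinase that stops translation on double-stranded RNA, rose by 0.76 ± 0.112 at day 4 and 0.41 ± 0.112 at day 7. At day 21 Lgals3bp, Shisa5 and Trim14 rose, Trim14 by 0.75 ± 0.172. Those that fell were Tor1aip1, Cd274 and Nt5c3 at day 4 and Ifi205 and Nt5c3 at day 7, Ifi205 by 1.02 ± 0.226 on the log2 scale.

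**Figure D4:**
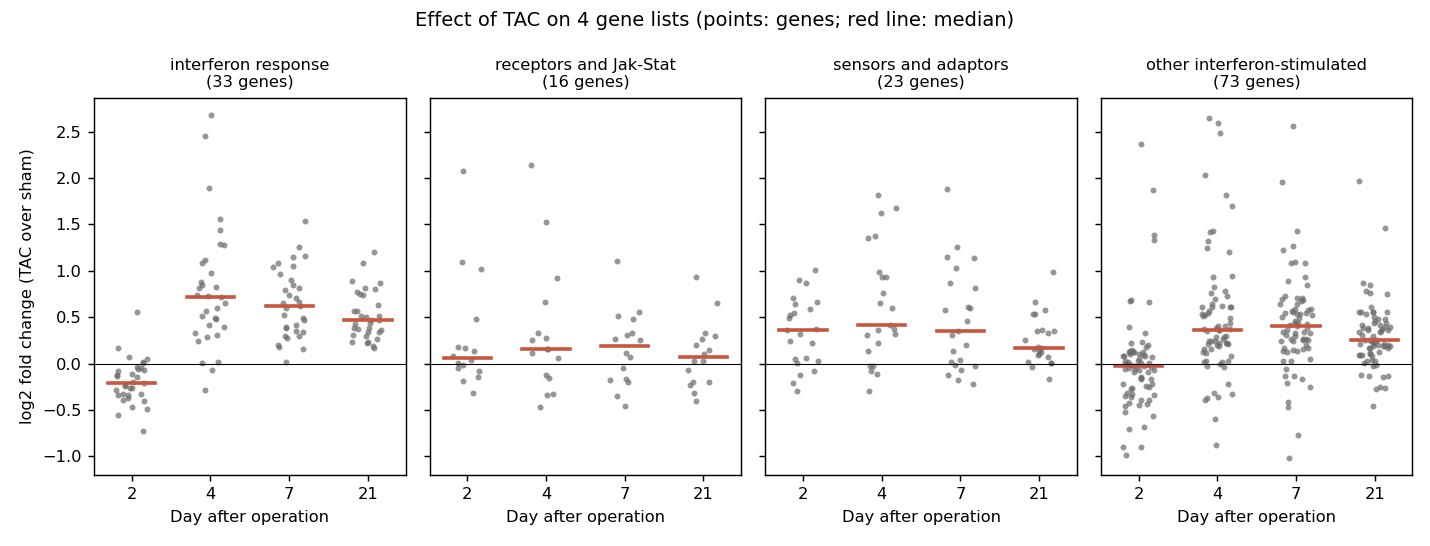
Log2 fold change of TAC over sham (y axis) by day (x axis) for the 33 members, 16 receptor and Jak-Stat genes, 23 sensors and adaptors and 73 other interferon-stimulated genes. Each point is a gene and the red line is the median, which at day 2 lies at -0.21 for the members, 0.06 for the receptors, 0.36 for the sensors and -0.03 for the other induced genes.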

How the data were processed

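RNA sequencing of mouse left ventricle in 24 libraries was analysed from 2 tables. The authors deposited raw read counts per gene symbol, and, as a second table, RPKM computed by the authors, used here for levels per length and as an alternative. Total RNA went into NuGEN Ovation libraries, read on an Illumina NextSeq500, per the labels' protocols. TopHat, DESeq and hg19 are named without version or role, per the submitters' processing notes. As hg19 is a human build and the symbols are those of mouse, the sources used here do not give the mouse build, annotation, counting tool or strand setting. Without a stated strand, overlapping and antisense genes cannot be told apart.

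Counts were tested in R 4.3.3 with edgeR 4.0.16 (TMM, filterByExpr on the 8 groups, quasi-likelihood test, 16 residual degrees of freedom, two-sided) in 1 fit over 24 libraries, with Benjamini-Hochberg adjustment over 13816 genes and a threshold of 0.05. Differences between days were contrasts of that fit. The standard error is the absolute log2 fold change divided by the square root of F. The biological coefficient of variation was 0.146. Library totals were 10.7 to 17.6 M. Pairs of replicate libraries differed by 3.52 to 10.55 in chi-square per degree of freedom over all genes in sham and by 14.2 to 58.9 in TAC. Both ranges exceed what counting error alone gives. The fit used 1 estimate of spread per gene for both operations. Comparisons among sham hearts thus carried the wider spread of TAC libraries, and comparisons among TAC hearts the narrower spread of sham libraries. For members with few reads, such as Oas3 and Mx1, counting error also limits the precision. Alternatives were RLE scaling, no filter, DESeq2 1.42.0, limma 3.58.1 (voom on counts, and trend on log2 of RPKM plus 0.1 or 1, which understates changes of low genes), the 6 libraries of the day, a replicate block, and each library left out. The omission of 4 libraries with over 30 CPM of Myl7 was chosen after seeing the data. The fit was tested on simulated counts.

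The 33 members, the other gene lists and the markers were chosen with earlier results of these data known. Values per library are given for Irf7, Isg15, Ifit3, Mx1, Oasl2 and Rsad2 and for up to 3 members a comparison with the smallest p; Irf1, given with its levels of day 21, was chosen after its values were seen, as were genes of the other lists beyond those with the smallest p. Promoter sequences are RefSeq's, GRCm38.p6. Some results are not reported here.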

Additional observations from a re-analysis of the deposited data

Results flagged for a closer look

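The effect of TAC on Rsad2 differed between days by a test of the difference itself. It was -0.73 ± 0.175 at day 2 and 0.74 ± 0.177 at day 21 on the log2 scale, a difference of 1.47 ± 0.249 (edgeR adjusted p = 0.0495). All 3 TAC libraries lay below the 3 sham libraries at day 2 and above them at day 21. Sham hearts held 30.9 ± 6.84 CPM of Rsad2 at day 2 and 21.4 ± 1.20 CPM at day 21 (SD, n = 3), and TAC hearts 18.7 ± 2.25 and 35.7 ± 2.35 CPM. The call is close to the threshold, and it was lost under several alternatives given with the processing.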

How the results depend on the processing

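The counts of TAC against sham at day 4 (22) and day 7 (17) stayed within 1.5 times under RLE scaling, no filter, DESeq2, limma voom, RPKM and the replicate block. At day 7 the count was 11 with the 6 libraries of the day alone and 5 without the 4 libraries with over 30 CPM of Myl7. The 1 member of day 2 was lost (0) under the 3 RPKM settings, with the 6 libraries of the day alone and without the Myl7 libraries, which left 1 sham library at that day, assumed to vary like the rest. At day 21 the 2 members became 1 with voom, RPKM with pseudocount 1, RPKM without filter and the replicate block, and 0 without the Myl7 libraries. For day 4 against day 2, DESeq2 gave 5 in place of 0. For day 21 against day 2, the 1 call became 0 under RLE scaling, voom, RPKM with pseudocount 1, RPKM without filter, the replicate block and the Myl7 omission, and 3 with DESeq2. Over the sham days DESeq2 gave 1 in place of 0, and for TAC day 2 against later TAC days the Myl7 omission gave 13 in place of 22. The cause of these shifts was not tested. Over all genes, the 633 calls of day 2 became 292 with voom, 221, 140 and 125 with RPKM (pseudocounts 0.1 and 1, and no filter), 213 with the replicate block, and 0 with the day alone or the Myl7 omission. The 151 calls of day 21 became 461 with DESeq2, 87 with voom, 99, 61 and 59 with RPKM, 24 with the replicate block, 30 with the day alone and 3 with the Myl7 omission, under which day 7 had 892 in place of 3201.

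With each library left out in turn the counts ranged from 0 to 1 at day 2, 14 to 21 at day 4, 5 to 24 at day 7, 0 to 4 at day 21, 0 to 1 for day 21 against day 2 and 10 to 23 for TAC day 2 against later TAC days. The other 5 comparisons stayed at 0. Of 657 values of single genes recomputed, 98 lost the call, 2 gained it and 0 changed sign. These values cover the alternatives above and, for each gene, only the omissions with the lowest and the highest log2 fold change. Calls lost under the remaining omissions are not in this count.

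Replicate numbers are shared by the groups, and no label used here says that they pair the libraries. Over 12 pairs the correlation of deviations was -0.169 to 0.129, above 0.1 in 1. This gave no sign of pairing, but with 3 libraries a group it cannot show that there was none. With the block the counts were 1 at day 2, 19 at day 4, 15 at day 7, 1 at day 21 and 0 for day 21 against day 2.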
